A study of Mus musculus with 4 samples.

Results

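The 9 genes Fhl1, Fhl2, Fhl3, Csrp3, Ldb3, Pdlim1, Pdlim3, Pdlim5 and Pdlim7 encode muscle proteins of the LIM domain class and were taken by symbol from the tables of both tissues. All 9 were listed in each tissue, among 10791 symbols in heart and 10352 in tibialis anterior (TA), a fast hindlimb muscle, 9906 of them in both. Ribosome-protected fragments (RPF, or footprints), the stretches left after nuclease has removed what ribosomes do not cover, were sequenced beside total RNA depleted of rRNA. Heart and TA came from 10-week-old male C57BL/6J mice, and the RPF and RNA of a tissue from the same lysate. The 4 libraries were heart RPF, heart RNA, TA RPF and TA RNA, with 1 library per group, and how many animals stand behind each is not stated. No difference below therefore has a replicate check, no test is given, and intervals are 95% and cover counting error only.

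LIM domains are zinc-binding modules that hold proteins together rather than enzymes. In striated muscle they sit at the Z-disc, the anchor of the thin filaments, and at membrane attachment sites. The FHL proteins consist of LIM domains alone and shuttle between the sarcomere and the nucleus. Csrp3, or muscle LIM protein, is a Z-disc protein whose loss leads to dilated cardiomyopathy in mice. Ldb3, also called Cypher or ZASP, and the Pdlim proteins join a PDZ domain, which binds alpha-actinin, to LIM domains.

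Defining markers followed the tissue labels. RPM stands for reads per 1000000 reads, which here sum to nearly that number over coding sequences. In heart 7 of 8 cardiac muscle markers were listed (all but Myl7), with 99666 RPM of RNA in sum, against 6 of 8 with 246 RPM in TA. Of 9 fast skeletal markers 5 were listed in heart with 134 RPM of RNA in sum, against all 9 with 167758 RPM in TA. Coding depth, recovered from the size of 1 read, was about 28123000 reads for heart RPF, 9286000 for heart RNA, 28537000 for TA RPF and 16050000 for TA RNA. Levels of different genes are compared below as RPM per kilobase of coding sequence. The 9 mRNAs together took 0.572% of coding RPF (Wilson interval 0.569 to 0.575%) and 0.474% of coding RNA (0.469 to 0.478%) in heart. In TA they took 0.264% of RPF (0.262 to 0.266%) and 0.127% of RNA (0.126 to 0.129%). Fhl2 and Csrp3 held 2306 and 1210 of the members' 4709 RPM of RNA in heart, and 1.86 and 26.3 of 1270 in TA. In RPF they held 2195 and 1296 of 5700 RPM in heart, and 1.43 and 24.7 of 2637 in TA.

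Upstream sequence was read from RefSeq windows on GRCm38.p6, which covered all 9 genes in 14 windows, and the 250 bases before each annotated start were searched on both strands. A match is a description of letters and not a binding site. The CArG box, the letters recognised by serum response factor, a regulator of muscle genes, was found in 3 of the 9 genes, Fhl1, Fhl2 and Ldb3, and in 5 of the 14 windows. It was found in 1.47% of 32851 mouse windows of the same length. The stretches around these matches are shown because these genes include Fhl2, the member furthest higher in heart, and Ldb3. In ratios of RPM, not centred on the median gene, Ldb3 was the member that differed least between the tissues. Each stretch is given on the gene's strand with the CArG box in capitals.
Fhl2, upstream start, chr1:43196838-43196867, minus strand: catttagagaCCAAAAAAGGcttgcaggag
Fhl2, downstream start, chr1:43163973-43164002, minus strand: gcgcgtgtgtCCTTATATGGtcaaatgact
Ldb3, chr14:34588697-34588726, minus strand: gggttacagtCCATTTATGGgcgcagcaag
Fhl1, chrX:56779571-56779600, plus strand: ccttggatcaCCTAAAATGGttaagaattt

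The Ldb3 match lay in both of that gene's overlapping windows, 35 and 109 bases before their starts. The upstream Fhl2 window also held a match to the MEF2 site, 31 bases before the start, which overlapped a reverse-strand match to TATAAA. MEF2 factors drive muscle genes, and their site was present in 2.92% of all windows. The MCAT element CATTCC was found in Pdlim3 alone among the 9 genes, in 1 of the 14 windows (12.6% of all windows). The TATA box letters TATAAA were found in 3 of the 9 genes and 3 of the 14 windows (12.4% of all windows). The E-box CANNTG was found in 5 of the genes and 8 of the 14 windows (66.2%). None of these letters was found in the searched windows of Fhl3, Pdlim1 or Pdlim7.

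The FHL family was divided between the tissues. Fhl2, known as a partner of titin and a transcriptional cofactor, stood at 2195 RPM of footprints in heart and 1.43 in TA. Its RNA stood at 2306 RPM in heart and 1.86 in TA, the TA values resting on 41 RPF and 30 RNA reads. Fhl2 was thus among the most abundant mRNAs of heart (rank 24 of 10791 by RNA per kb) and among the rare listed mRNAs of TA (rank 8659 of 10352). The log2 ratio of heart over TA was 10.49 in RPF (10.14 to 11.06) and 10.20 in RNA (9.76 to 10.84). In bulk tissue, fewer cells of a type and less RNA per cell cannot be told apart.

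Fhl1, whose human gene is mutated in reducing body myopathy, had 50.9 RPM of footprints in heart and 222 in TA. Its RNA stood at 54.9 RPM in heart and 237 in TA. Both readouts were lower in heart, with log2 ratios of -2.12 in RPF (-2.21 to -2.04) and -2.11 in RNA (-2.25 to -1.98). For Fhl3, which binds actin, footprints came to 12.7 RPM in heart and 289 in TA. Its RNA stood at 7.06 RPM in heart, from 66 reads, and 109 RPM in TA. The log2 ratio was -4.50 in RPF (-4.66 to -4.36) and -3.94 in RNA (-4.33 to -3.60), so Fhl3 was the FHL mRNA furthest lower in heart.

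Within the family, compared per kb of coding sequence, Fhl2 made up 97.5% of FHL footprints (97.4 to 97.6%) and 97.7% of FHL RNA (97.5 to 97.9%) in heart. In TA it made up 0.303% of footprints (0.223 to 0.411%) and 0.595% of RNA (0.417 to 0.850%). The balance of the other two in TA differed between the readouts. Fhl1 had 40.6% of FHL footprints and 65.6% of FHL RNA there, whereas Fhl3 had 59.1% of footprints and 33.8% of RNA. Fhl1 thus led the family in TA by RNA and Fhl3 led it by footprints, and the counting intervals of these shares did not overlap.

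**Figure D1:**
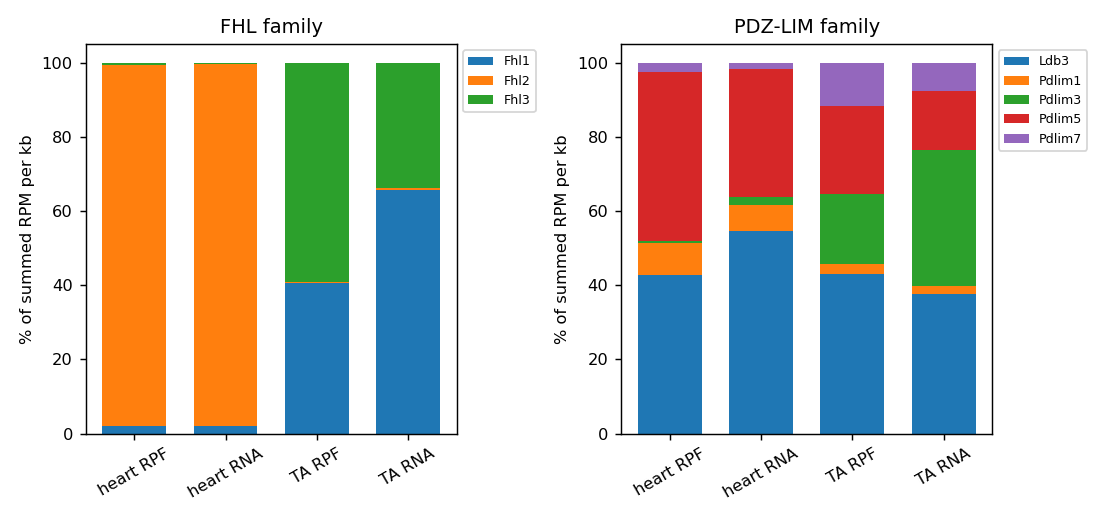
Stacked bars give each gene's percentage of the summed coding RPM per kb of its family, FHL on the left and PDZ-LIM on the right, in heart RPF, heart RNA, TA RPF and TA RNA (1 library each). Fhl2 fills 97.5% of the FHL bar in heart RPF and 0.303% in TA RPF, and Pdlim3 fills 0.482% of the PDZ-LIM bar in heart RPF and 19.0% in TA RPF.

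Csrp3 footprints came to 1296 RPM in heart and 24.7 in TA. Its RNA stood at 1210 RPM in heart and 26.3 in TA. It ranked 34 by RNA per kb in heart and 1466 in TA, so it stayed in the upper part of the TA list (percentile 85.8), unlike Fhl2 (percentile 16.4). The log2 ratio was 5.71 in RPF (5.60 to 5.82) and 5.52 in RNA (5.39 to 5.67). Per kb, Fhl2 and Csrp3 stood at 2632 and 2238 RPM in heart RPF, and the next member, Pdlim5, at 517.

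Cardiac muscle markers in TA lie beside both results. Their 6 listed members ranged from 2.05 to 210 RPM of RNA in TA and from 1.68 to 440 RPM of RPF, and Myh6 and Myl7 were not listed there. The lowest of these values are close to those of Fhl2. Their part in the TA values of Fhl2 and Csrp3 was not tested.

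Of the PDZ-LIM genes, Ldb3 was abundant in both muscles. Its footprints came to 1053 RPM in heart and 1130 in TA, with 694 RPM of RNA in heart and 462 in TA. These were differences of under 2-fold, log2 -0.10 in RPF (-0.12 to -0.08) and 0.59 in RNA (0.54 to 0.64), on opposite sides of 0. With ratios centred on the median gene the RNA of Ldb3 was at -0.11, so its direction in RNA is not settled. The RPF of Ldb3 was at -0.70 in that setting, still under 2-fold. Pdlim5, or ENH, which ties protein kinases to the Z-disc, had 951 RPM of footprints in heart and 525 in TA. Its RNA stood at 373 RPM in heart and 165 in TA. The RNA was 2.25-fold higher in heart (log2 1.17, 1.10 to 1.25) and the RPF ratio was log2 0.86 (0.83 to 0.89), under 2-fold. Centred in the same way, Pdlim5 was at log2 0.48 in RNA and 0.26 in RPF, both under 2-fold.

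Pdlim1, or CLP36, which is also expressed outside muscle, had 94.7 RPM of footprints in heart and 30.3 in TA. Its RNA stood at 40.6 RPM in heart and 11.7 in TA. It was higher in heart, at log2 1.64 in RPF (1.53 to 1.75) and 1.79 in RNA (1.54 to 2.06). Endothelial markers, all 10 of 10 listed in each tissue, were also higher in heart, with 1612 RPM of RPF in sum in heart and 729 in TA, and 1533 RPM of RNA in heart and 388 in TA. Macrophage and leukocyte markers (9 of 10 listed in heart, 8 of 10 in TA) summed to 376 RPM of footprints in heart and 140 in TA, and 281 RPM of RNA in heart and 47.3 in TA. Smooth muscle and pericyte markers (9 of 10 listed in each) summed to 917 RPM of footprints in heart and 713 in TA, and 909 RPM of RNA in heart and 365 in TA. Fibroblast markers (8 of 9 in each) had footprints of 1924 RPM in heart and 2466 in TA, and 1618 RPM of RNA in heart and 1559 in TA. The part of these cell types in the Pdlim1 values was not tested.

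Pdlim3, or ALP, which binds alpha-actinin-2, was the member furthest lower in heart. Its footprints came to 5.17 RPM in heart, from 146 reads, and 218 in TA, with 11.5 RPM of RNA in heart, from 107 reads, and 196 in TA. The log2 ratio was -5.37 in RPF (-5.65 to -5.16) and -4.09 in RNA (-4.39 to -3.82). Pdlim7, or Enigma, had 41.0 RPM of footprints in heart and 196 in TA, with 13.0 RPM of RNA in heart and 60.4 in TA. Its log2 ratio was -2.26 in RPF (-2.35 to -2.17) and -2.21 in RNA (-2.51 to -1.95).

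Fast skeletal markers in heart lie beside the genes that were lower there. The 5 listed ones summed to 39.0 RPM of RPF in heart and all 9 to 215010 RPM in TA, while Myh4, Myh1, Myh2 and Actn3 were not listed in heart. Their heart RNA ranged from 15.0 to 50.1 RPM per gene. The part of skeletal muscle RNA in the heart values of Fhl1, Fhl3, Pdlim3 and Pdlim7 was not tested.

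Taken over the 9 genes, the RNA of 4 was higher in heart by 2-fold or more (35.0% of all 9843 genes compared were) and that of 4 was lower by as much (3.88% of all genes). In RPF 3 were higher (30.1% of all genes) and 4 were lower (5.06%). The higher genes were Fhl2, Csrp3 and Pdlim1 in both readouts and Pdlim5 in RNA. The lower genes were Fhl1, Fhl3, Pdlim3 and Pdlim7 in both. The median log2 ratio of the members was -0.10 in RPF and 0.59 in RNA, against 0.60 and 0.70 for all genes. Most genes were thus slightly higher in heart on this scale, and the members were spread widely on both sides.

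**Figure D2:**
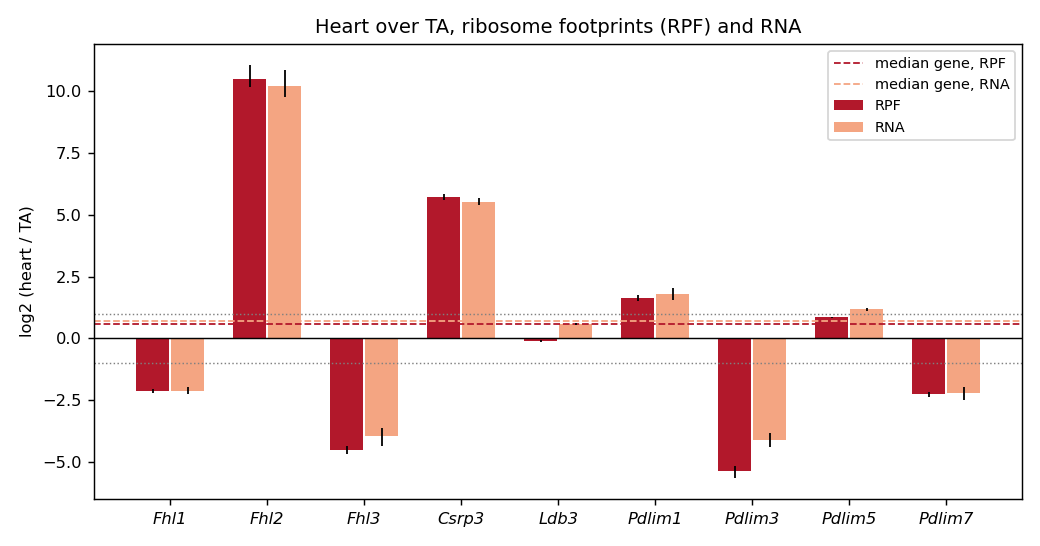
Bars give the log2 ratio of heart over TA for each gene in RPF and in RNA, with 95% counting intervals. Dashed lines mark the median gene and dotted lines a 2-fold difference. Fhl2 reaches 10.49 in RPF and Pdlim3 -5.37, while Ldb3 lies near 0.

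The order of the members per kb differed between the muscles. In heart RNA it ran Fhl2, Csrp3, Ldb3, Pdlim5, Fhl1, Pdlim1, Pdlim3, Pdlim7 and Fhl3. The top of this order was 2764 RPM per kb and the bottom 8.17, and the counting intervals of Pdlim3, Pdlim7 and Fhl3 overlapped with their neighbours. In TA RNA it ran Fhl1, Ldb3, Pdlim3, Fhl3, Pdlim5, Csrp3, Pdlim7, Pdlim1 and Fhl2. The values ran from 246 to 2.23 RPM per kb, with overlap between Ldb3 and Pdlim3 and between Csrp3 and Pdlim7. By footprints Pdlim5 passed Ldb3 in heart (517 and 486 RPM per kb), and Ldb3 and Fhl3 led in TA (522 and 334).

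**Figure D3:**
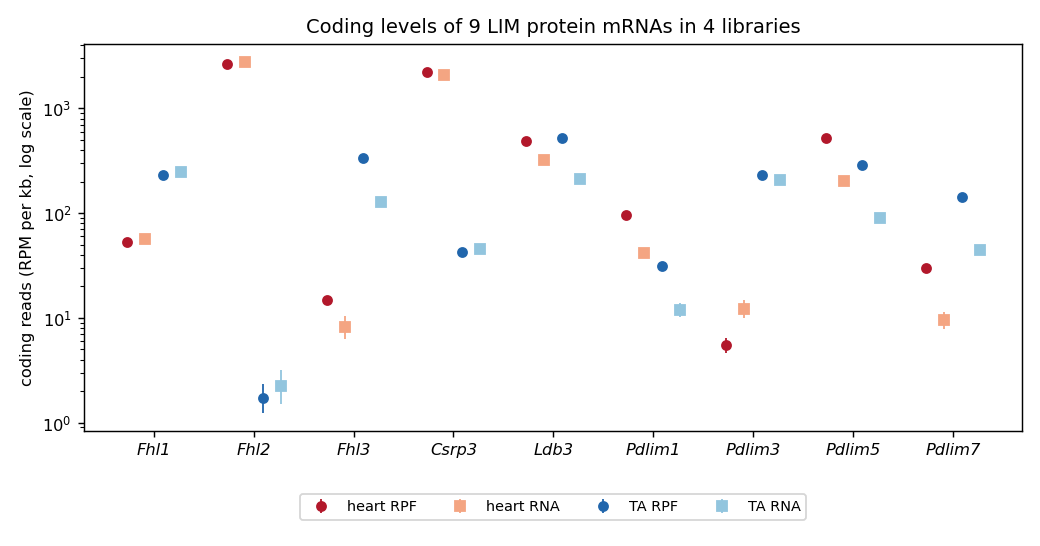
Points give coding reads as RPM per kb on a log axis for each gene in heart RPF, heart RNA, TA RPF and TA RNA, with 95% counting intervals. Fhl2 spans from 2632 in heart RPF to 1.71 in TA RPF, and Ldb3 stays between 213 and 522 in all 4 libraries.

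Translational efficiency was taken as coding RPF over coding RNA, set relative to the median gene in each tissue. The median ratio was 0.737 in heart and 0.835 in TA. In both muscles the same 5 members exceeded the median by 2-fold or more, Fhl3, Ldb3, Pdlim1, Pdlim5 and Pdlim7, and no member was 2-fold below. Of all genes 16.0% were that high in heart and 15.4% in TA. The low side held 17.8% of genes in heart and 18.7% in TA. The median of the members was log2 1.04 in heart and 1.55 in TA, against 0 for all genes by construction.

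Pdlim7 was at log2 2.09 in heart (1.83 to 2.38) and 1.96 in TA (1.86 to 2.06), at percentile 97.6 and 97.1 of all genes. Pdlim5 was at 1.79 (1.74 to 1.84) and 1.93 (1.87 to 1.99), and Pdlim1 at 1.66 (1.51 to 1.82) and 1.63 (1.41 to 1.87). These 3 were the highest members in heart, and the lowest of their percentiles in either muscle was 94.4. Ldb3 was at 1.04 in heart (1.00 to 1.08) and 1.55 in TA (1.51 to 1.59), and its heart value was 0.998 with a pseudocount of 1, just under the 2-fold line. Fhl3 was at 1.28 in heart (0.90 to 1.69) and 1.66 in TA (1.58 to 1.73).

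Fhl1, Fhl2, Csrp3 and Pdlim3 lay nearer the median. Fhl1 was at 0.33 in heart (0.18 to 0.48) and 0.16 in TA (0.11 to 0.22). Csrp3 was at 0.54 in heart (0.51 to 0.57) and 0.17 in TA (-0.0032 to 0.35). Fhl2 was at 0.37 in heart (0.35 to 0.39) and -0.10 in TA (-0.83 to 0.61). The TA intervals of Csrp3 and Fhl2 reached the median, and the few TA reads of Fhl2 set no sign. The large tissue difference of Fhl2 and Csrp3 was thus seen at much the same size in RNA and in RPF.

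**Figure D4:**
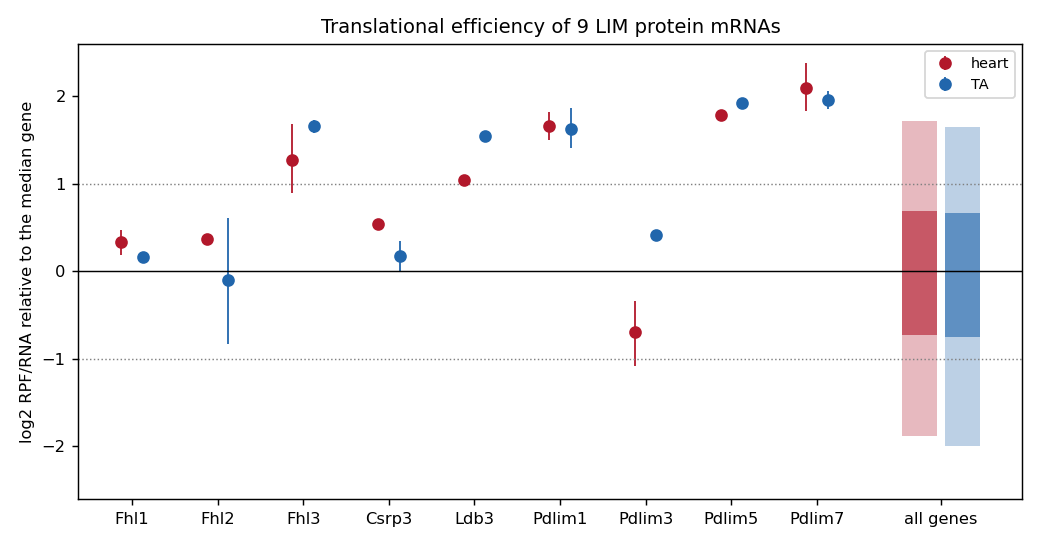
Points give log2 RPF over RNA relative to the median gene in heart and in TA, with 95% counting intervals. Bars at the right give the middle range of all genes (dark, between the quartiles) and the wider range that leaves out the outermost 5% on each side (light). Pdlim7 and Pdlim5 lie above the light bars in both tissues, and Pdlim3 is at -0.69 in heart and 0.41 in TA.

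Between the tissues, 8 of the 9 genes differed by under 2-fold in efficiency. Pdlim3 was 2-fold lower in heart (2.34% of all 9635 genes were) and none was 2-fold higher (4.07%). Pdlim3 stood at log2 -0.69 in heart (-1.08 to -0.33) and 0.41 in TA (0.35 to 0.47), a difference of -1.10 (-1.47 to -0.74) at percentile 1.73 of all genes. With a pseudocount of 1 the difference was -0.99, just under 2-fold. Fast skeletal markers also had less RPF than RNA in heart, where the 5 listed ones summed to 39.0 RPM of RPF and 134 RPM of RNA. In TA all 9 summed to 215010 RPM of RPF and 167758 RPM of RNA. Whether the Pdlim3 difference is shared with such genes was not tested. Ldb3 had the next largest difference, -0.51 (-0.56 to -0.46), and Pdlim5 had -0.14 (-0.21 to -0.06). On the other side Csrp3 had 0.37 (0.19 to 0.54) and Fhl1 had 0.17 (0.01 to 0.32). The intervals of Fhl2 (-0.21 to 1.15), Pdlim1 (-0.24 to 0.31), Pdlim7 (-0.15 to 0.42) and Fhl3 (-0.77 to 0.00) reached 0.

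The untranslated regions (UTRs) were compared with the coding sequence as reads per base. Over all genes the median density of RPF in the 3'UTR was 0.0102 of the coding density in heart and 0.00477 in TA, whereas that of RNA was 0.739 and 0.786. In the 5'UTR the median density of RPF was 0.174 of coding in heart and 0.111 in TA. Footprints of the median gene were thus sparse in the 3'UTR relative to the coding sequence. Pdlim3 departed from this in heart. Its 3'UTR held 2.48 RPM of RPF in heart, from 70 reads, and 1.61 RPM in TA, from 46 reads. Relative to its coding density that was 0.852 in heart (0.631 to 1.14), at percentile 99.1 of all genes, and 0.0131 in TA (0.00958 to 0.0175). Its 5'UTR had 1.90 times its coding density of RPF in heart (1.23 to 2.87) and 0.461 times in TA (0.408 to 0.518). Per base, the few heart RPF reads of Pdlim3 were thus nearly as dense in the 3'UTR as in the coding sequence, and its RNA reads likewise (1.05 times coding in heart and 1.45 in TA). UTR reads do not enter the efficiency, which used coding reads only. The link of this spread of reads to the heart efficiency of Pdlim3 was not tested.

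Pdlim5 had an unusual 5'UTR. Its leader of 153 bases held 440 RPM of RPF in heart, from 12427 reads, and 93.6 RPM in TA, from 2677 reads, against 23.6 RPM of RNA in heart and 13.4 in TA. That was the fifth highest 5'UTR footprint level of the heart table, 1.57% of all 5'UTR footprints, and rank 9 in TA. Per base the leader carried 5.56 times the coding density of RPF in heart (5.44 to 5.68) and 2.14 times in TA (2.06 to 2.23). The median gene had 0.174 in heart and 0.111 in TA. The ratio of RPF to RNA in the leader was 18.7 in heart and 7.01 in TA, at rank 10 of 3449 and rank 20 of 2469 genes with at least 1 RPM of 5'UTR RNA. The leader footprints of Pdlim5 were thus higher in heart by more than its coding footprints were.

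In Ldb3 the leader had more RNA than footprints relative to the coding sequence. Its 5'UTR of 107 bases held 11.0 RPM of footprints in heart and 4.27 in TA, and 50.2 RPM of RNA in heart and 47.4 in TA. Its RNA density there was 1.47 times coding in heart (1.33 to 1.61) and 2.08 times in TA (1.93 to 2.24), at percentile 98.6 and 99.6. Its RPF density was 0.211 times coding in heart and 0.0765 in TA, at percentile 53.4 and 44.9, close to the median gene. In heart the leaders of Fhl2 and Csrp3 were below the median gene relative to coding in both readouts. Genes without a leader read count as lower in the percentiles given. Fhl2 held 65 RPF reads there, 0.00309 of its coding density (percentile 22.4), and an RNA density of 0.0327 (percentile 28.2). Csrp3 held 20 RPF reads, 0.00311 of its coding density (percentile 22.4), and an RNA density of 0.0592 (percentile 32.6). In TA Csrp3 had 0 reads of RPF in its 5'UTR, which allows a density of up to 0.0241 of coding (3 reads), beside 707 coding RPF reads.

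Fhl1 had footprints in its 3'UTR in both muscles. They came to 3.51 RPM in heart, from 99 reads, and 19.6 RPM in TA, from 560 reads, which ranked 12 among all 3'UTRs of the TA table. The density was 0.0469 of coding in heart (0.0379 to 0.0575) and 0.0601 in TA (0.0550 to 0.0655). By density Fhl1 was at percentile 79.6 of all genes in heart and 89.6 in TA. In the GENCODE M21 annotation of GRCm38, 71 bases of the 3'UTR of the matching Fhl1 transcript are coding sequence in other Fhl1 transcripts, and 26 bases of its 5'UTR are. No other member had such bases in that annotation. The matching Pdlim5 transcript is annotated there without UTRs, so none could be found for it. The matching Pdlim7 transcript has 232 bases of 3'UTR there against 1161 listed, so its listed 3'UTR was not covered in full. Per base of their listed 3'UTRs, Pdlim5 and Pdlim7 had little RNA. The 3'UTR density of RNA was 0.103 of coding in heart and 0.0494 in TA for Pdlim5, and 0.224 and 0.0630 for Pdlim7, between percentile 2.24 and 8.20 of all genes. A listed 3'UTR longer than the one in use would lower such a density. The part of the listed lengths of both genes in these values was not tested.

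**Figure D5:**
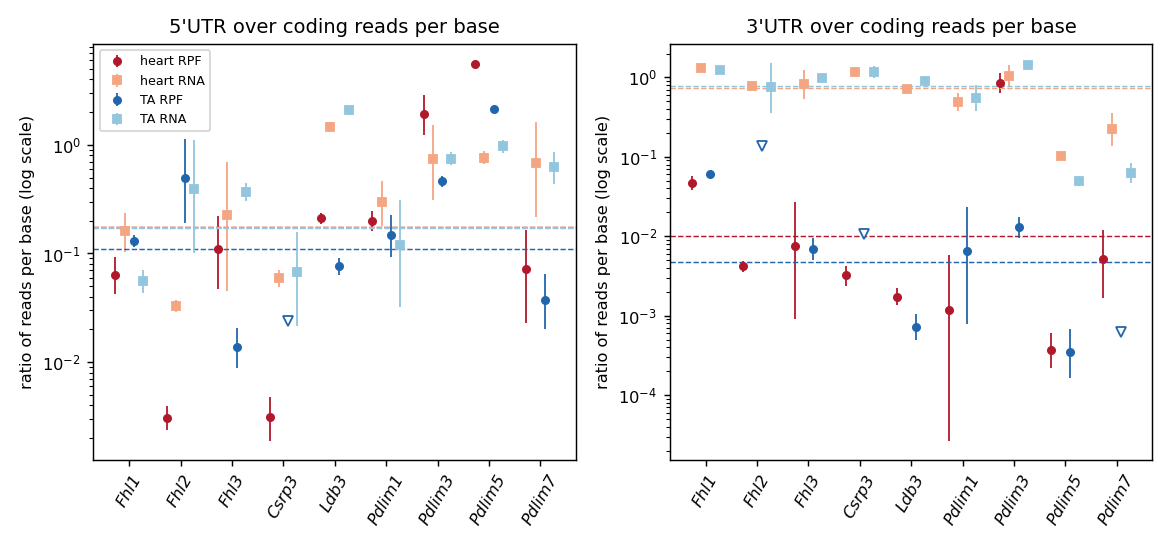
Points give reads per base of the 5'UTR (left) and 3'UTR (right) over reads per base of the coding sequence, on log axes, for heart RPF, heart RNA, TA RPF and TA RNA, with 95% counting intervals. Dashed lines mark the median of all genes and open triangles the upper limit where no read was counted. Pdlim5 stands at 5.56 for 5'UTR RPF in heart, and Pdlim3 at 0.852 for 3'UTR RPF in heart and 0.0131 in TA.

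The values refer to 1 transcript model per gene. For all 9 genes the coding length listed was 6 bases under that of the matching GENCODE transcript. None of the 26-base words of the 9 coding sequences occurred in a protein-coding transcript of another gene in that annotation, 26 being the shortest fragment cut from the gel, so exact matches do not mix the members with each other. Isoforms of the same gene cannot be told apart. Pdlim5 has 11 other coding transcripts, of which 7 hold under 50% of the listed coding sequence, and Ldb3 has 6, of which 2 do. All 5 others of Pdlim7 do so too. Short forms of Pdlim5 and Ldb3 that lack the LIM domains are known.

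By level in the 4 libraries (Euclidean distance of log2 RPM per kb among 7570 other genes), the nearest gene to Fhl2 was Mybpc3, cardiac myosin binding protein C, at a distance of 2.75, followed by Tnni3, cardiac troponin I, at 2.96. For Csrp3 they were Casq2, the calcium buffer of the cardiac reticulum, at 1.72, and Idh2, a mitochondrial dehydrogenase, at 2.32. The nearest to Pdlim3 was Jph1, a junctophilin, at 1.50. These 3 members thus had no close match. The nearest genes were closer for Ldb3 (Lgals1 at 0.20 and Adck3 at 0.35), Pdlim1 (Clic1 at 0.37 and Mccc1 at 0.42), Pdlim5 (Cav1 at 0.48 and Hspb1 at 0.50) and Pdlim7 (Gadd45g at 0.44 and Mllt11 at 0.78). Those of Fhl1 were Rtn2 (0.68) and Ppp1r3c (0.73), and those of Fhl3 were Gpd2 (0.68) and Smtnl2 (0.70).

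Of the other LIM domain genes, 38 of 49 symbols searched were listed in both tissues. One gene was searched under both Ajuba and Jub. RNA was higher in heart by 2-fold or more for 29 of the 38 (35.0% of all genes) and lower for 1 (3.88% of all genes), with a median log2 ratio of 1.62 against 0.70 for all genes. In RPF 22 were higher (30.1% of all genes) and 2 lower (5.06%), with a median of 1.10 against 0.60. Fblim1, or migfilin, was furthest higher, with footprints of 288 RPM in heart and 1.68 in TA, and 91.9 RPM of RNA in heart and 0.62 in TA. Lmcd1 was the lowest, with footprints of 29.8 RPM in heart and 137 in TA, and 35.2 RPM of RNA in heart and 89.0 in TA. Crip2, a small LIM protein, was the most abundant per kb, with footprints of 2924 RPM in heart and 60.1 in TA, and 565 RPM of RNA in heart and 10.6 in TA. Nrap and Lmo7 followed, with log2 RNA ratios of -0.88 and 2.83. In efficiency 4 of 40 lay above the median by 2-fold or more in heart (16.0% of all genes) and 2 below it (17.8%), while in TA 7 of 37 lay above (15.4%) and 3 below (18.7%). The list medians were -0.19 in heart and 0.18 in TA. In the difference of efficiency between the tissues Lima1 was lowest, at -1.16, and Mical2 highest, at 0.65.

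Of 20 genes whose proteins bind LIM proteins at the Z-disc, at adhesion sites or as kinases, 16 were listed in both tissues. By 2-fold or more, RNA was higher in heart for 9 (35.0% of all genes) and lower for 2 (3.88%), with a median log2 ratio of 1.28 against 0.70 for all genes. RPF was higher for 7 (30.1% of all genes) and lower for 3 (5.06%), with a median of 0.65 against 0.60. Actn2, the alpha-actinin that PDZ-LIM proteins bind, had footprints of 4570 RPM in heart and 1800 in TA, and 2539 RPM of RNA in heart and 621 in TA. Tcap, the titin cap that Csrp3 binds, was under 2-fold apart in both readouts (log2 -0.44 in RPF and -0.41 in RNA). Myoz2, a Z-disc protein that binds Actn2, was highest in heart relative to TA, at log2 4.08 in RPF and 4.66 in RNA, and Myot, or myotilin, was lowest, at -5.03 and -4.79. In efficiency 6 of 17 lay above the median by 2-fold or more in heart (16.0% of all genes) and 2 below it (17.8%), while in TA 6 of 19 lay above (15.4%) and 0 below (18.7%). In the difference of efficiency Ilk, the integrin-linked kinase, was highest at 0.32, and Actn4 lowest at -1.17.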

How the data were processed

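Per the labels, 1 tissue lysate made in cycloheximide was split, and RNA was taken before digestion with RNase I while fragments of 26 to 36 bases were cut from a gel. The labels say that mapping was to RefSeq transcripts. Per the submitters' processing notes the tool was Bowtie and the build mm9, with no version or settings stated. The values deposited by the authors are RPM for the coding part and each UTR of 1 transcript model per gene, not divided by length. According to the file headers they are counted per 1000000 mapped reads. Coding values alone summed to between 993831 and 998118 RPM in a library, so the UTR values come on top of that scale. No source used here says why a gene is listed, so a gene that is not listed cannot be read as a 0.

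Low values were whole multiples of the worth of 1 read within 0.0055 RPM, about their rounding, for 100% of RNA and RPF values. One read was worth 0.0354 RPM (heart RPF), 0.107 RPM (heart RNA), 0.0350 RPM (TA RPF) or 0.0621 RPM (TA RNA). The RPF steps are small against the rounding, so RPF reads are less sure. With 1 library in each group a count test has no residual degrees of freedom, and none was run.

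Ratios were log2 of (value + 0.1) over (value + 0.1), which understates the change of low genes. Efficiencies used genes with at least 1 RPM of RNA, and tissue ratios those with a mean RNA of at least 1 RPM. Called means at least 2-fold. Intervals are exact Poisson for levels and exact conditional for ratios. They are normal on the log scale for differences of efficiency and on the logit scale for family shares. A symbol on several rows was represented by its most abundant row. The 2 tables were made separately by the authors. Members and lists were chosen with earlier results of these data known. From each list the 3 most abundant genes and the extremes were named, and 2 nearest genes for each member, of which 1 is not reported here. The motifs and the search for shared sequence were chosen after the values were seen. Computations used Python 3.11.15, numpy 2.4.6, pandas 2.3.3, scipy 1.17.1, statsmodels 0.14.6 and matplotlib 3.10.9, and were tested on simulated data.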

Additional observations from a re-analysis of the deposited data

Results flagged for a closer look

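Pdlim3 lay on opposite sides of the median gene in efficiency, at log2 -0.69 in heart and 0.41 in TA, a difference of -1.10. The Fhl2 values were 0.37 in heart and -0.10 in TA, a difference of 0.47. With 41 RPF and 30 RNA reads in TA, the counting intervals of its TA value (-0.83 to 0.61) and of the difference (-0.21 to 1.15) span 0, so its side in TA is not settled. With 1 library per group neither difference was tested against replicates.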

How the results depend on the processing

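Pseudocounts of 1 and 0.01, minimums of 5 RPM and none, summed rows, the scale without the 50 most abundant genes, centring and, for efficiency, removal of the trend with coding length were tried. Of 76 counts of members, 73 stayed within 1.5 times. With a pseudocount of 1 the count of members 2-fold lower in efficiency in heart than in TA was 0. Without centring, 3 members were 2-fold above and 1 was 2-fold below an RPF to RNA ratio of 1 in heart. No called value changed sign, and 11 of 340 single values, all under 2-fold, did. Of the 340, 85 moved outside their counting intervals and 255 did not. With the length trend removed, heart efficiency was at log2 0.03 for Csrp3 and 0.08 for Fhl2, lower than in the main setting. It was higher for Ldb3, at 1.33, and Pdlim5, at 1.99. Ldb3 RNA turned to -0.11 when centred on the median gene and to -0.01 without the 50 most abundant genes. At a minimum of 5 RPM Fhl2 had no efficiency in TA. All 9 members had UTRs of at least 50 bases. No paired analysis was possible because each group had 1 library. Depth limits Fhl2 in TA and Fhl3 and Pdlim3 in heart.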
